A study of Homo sapiens with 6 samples.

Results

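The genes described here are the 7 human inhibitors of cyclin-dependent kinases (CDKs), CDKN2AIP, named for binding a product of CDKN2A, and its relative CDKN2AIPNL. The cells are HK-2, with or without the growth factor GDF5. All 9 of 9 genes were found by symbol among 34157 genes listed. All 9 passed the level of a mean of at least 1 RPKM over the libraries that 12476 genes passed. RPKM are reads scaled to the length of the gene's exons and to the library's total of reads assigned to genes. CDKN2AIP was selected on its RPKM, which were much lower with GDF5, so its difference between the groups is given as a description, without a test. The other 8 came in by family name.

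HK-2 is an established line of human kidney proximal tubule epithelium, and all libraries come from this 1 line. The 3 control libraries are from wild-type cells, for which no vehicle or time is given, and the 3 GDF5 libraries are from the same cells after 48 hours with 100 ng/ml GDF5, a ligand of the bone morphogenetic protein family. The series title places the question in tubular injury of diabetic kidney disease. As background, HK-2 cells were immortalised with papillomavirus E6 and E7 genes, whose products target p53 and RB, the proteins above and below the CDK inhibitors. The libraries held 43883468 to 56038305 recovered reads assigned to genes. Whether the libraries are from cultures grown apart is not labelled; the p-values therefore measure only library-to-library spread, possibly of technical origin. Of 8 markers of the kidney tubule line, KRT8 was at 68.7, KRT18 at 33.7, KRT7 at 8.74, PAX8 at 36.9, CDH6 at 122.3 and GGT1 at 2.30 RPKM in control cells, but PAX2 was at 0.226 and ANPEP at 0.0184 RPKM. The mature proximal tubule genes LRP2, CUBN and AQP1 were at 0.000918, 0.0540 and 0.0364 RPKM in control cells. SLC34A1 and SLC5A2, of the same class, were at 0.374 and 0.297 RPKM. These markers of a differentiated tubule were thus low or nearly absent. The markers of endothelium, leukocytes, fibroblasts and podocytes that the table holds were at no more than 0.0669 RPKM in either group.

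As background, CDKs paired with cyclins drive cells through the cycle, and CDK inhibitors hold them back. The CIP/KIP inhibitors p21 (CDKN1A), p27 (CDKN1B) and p57 (CDKN1C) bind complexes of several CDKs with their cyclins. The INK4 inhibitors p16 (CDKN2A), p15 (CDKN2B), p18 (CDKN2C) and p19 (CDKN2D) bind CDK4 and CDK6, and CDKN2A also encodes ARF, which holds back MDM2 and so stabilises p53. CDKN2AIP, also called CARF, binds ARF and p53, and it shares with CDKN2AIPNL and NKRF a domain that binds the nuclear exonuclease XRN2. In epithelial cells TGF-beta is known for arresting growth through CDKN2B and CDKN1A.

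The promoters of 3 of the genes that were lower with GDF5 are printed with that of CDKN2AIPNL, the relative of CDKN2AIP whose groups overlapped. Each run holds 300 bases from RefSeq on GRCh38.p14, 5′ to 3′ on the gene's strand, from 250 bases before the annotated start to 50 after it. Capitals mark the GC box (GGGCGG), the palindrome GGCGCC, the TATA box (TATAAA) and the CCAAT box (CCAAT), each searched on both strands. The runs cover chr4:183444386-183444685 (plus strand) for CDKN2AIP, chr6:36678464-36678763 (plus strand) for CDKN1A, chr19:10568930-10569229 (minus strand) for CDKN2D and chr5:134411832-134412131 (minus strand) for CDKN2AIPNL.
CDKN2AIP: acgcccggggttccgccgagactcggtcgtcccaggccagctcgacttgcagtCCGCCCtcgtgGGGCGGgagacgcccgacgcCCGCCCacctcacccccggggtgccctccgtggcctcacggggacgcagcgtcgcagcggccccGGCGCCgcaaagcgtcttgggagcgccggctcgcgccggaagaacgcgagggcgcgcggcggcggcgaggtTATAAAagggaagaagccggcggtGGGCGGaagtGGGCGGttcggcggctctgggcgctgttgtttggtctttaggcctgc
CDKN1A: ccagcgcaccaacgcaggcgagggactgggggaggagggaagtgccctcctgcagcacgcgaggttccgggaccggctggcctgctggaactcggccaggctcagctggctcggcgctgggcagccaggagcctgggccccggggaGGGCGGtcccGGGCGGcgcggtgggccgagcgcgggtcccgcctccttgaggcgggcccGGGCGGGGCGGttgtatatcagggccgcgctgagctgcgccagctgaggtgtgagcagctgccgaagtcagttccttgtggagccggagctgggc
CDKN2D: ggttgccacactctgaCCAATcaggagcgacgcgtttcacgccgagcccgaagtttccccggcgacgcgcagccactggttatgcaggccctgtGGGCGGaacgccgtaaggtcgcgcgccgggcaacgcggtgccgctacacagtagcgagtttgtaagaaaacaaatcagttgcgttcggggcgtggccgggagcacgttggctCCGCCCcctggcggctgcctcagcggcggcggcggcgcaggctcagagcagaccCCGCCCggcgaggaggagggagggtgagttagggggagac
CDKN2AIPNL: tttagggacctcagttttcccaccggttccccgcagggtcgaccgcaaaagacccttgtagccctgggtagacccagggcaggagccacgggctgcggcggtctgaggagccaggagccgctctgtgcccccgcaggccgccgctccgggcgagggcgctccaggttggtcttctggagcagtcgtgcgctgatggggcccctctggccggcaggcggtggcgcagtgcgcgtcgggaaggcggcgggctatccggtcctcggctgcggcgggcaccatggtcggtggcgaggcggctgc
The CDKN2AIP run holds 5 GC boxes, 1 GGCGCC and 1 TATA box, which begins 31 bases before the start. The CDKN1A run holds 4 GC boxes, of which the last pair overlaps, and the CDKN2D run holds 3 GC boxes and 1 CCAAT box. None of these motifs lies in the CDKN2AIPNL run. Having GC boxes does not set the lower genes apart: in entries not printed, of genes that were not called, 1 of the CDKN2C entries holds 6 GC boxes and 1 GGCGCC, the CDKN2B entry 2 GC boxes, and the CDKN1B entry 1 GC box and 3 CCAAT boxes. Of 35116 promoters of this length in the table, 44.95% hold a GC box, 19.2% GGCGCC, 11.5% the TATA box and 34.6% the CCAAT box. A match here is a run of letters and not a measured site. Promoters were found for 8 of the 9 genes, and CDKN1C had no entry.

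CDKN2AIP (ENSG00000168564, chromosome 4, 183444591 to 183448198 on GRCh38) was at 33.1, 35.6 and 32.9 RPKM in control replicates 1 to 3 and at 12.9, 12.7 and 13.2 RPKM in GDF5 replicates 1 to 3. Every GDF5 library lay far below every control library, and the spread within each group was small. The group means were 33.8 ± 1.52 and 12.9 ± 0.265 RPKM (SD, n = 3 each), so the GDF5 level was 0.383 of the control level, and the difference was -1.32 on the log2(RPKM + 1) scale. These values rested on 6367 to 7389 reads in control and 2242 to 2895 in GDF5 libraries. Only 5 of the 12476 tested genes had a lower log2 difference, which puts CDKN2AIP at rank 6 from the bottom. The difference in the authors' deposited table was -1.32 (log2).

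CDKN2AIPNL (ENSG00000237190, chromosome 5, 134402087 to 134411898), the shorter relative, was at 9.80, 10.5 and 8.82 RPKM in control and at 9.96, 9.70 and 9.41 RPKM in GDF5 libraries. The groups overlapped, with means of 9.72 ± 0.857 and 9.69 ± 0.271 RPKM. The log2 difference was -0.00098 with a 95% interval of -0.14 to 0.14 (limma adjusted p = 0.992). Its sign turned to 0.050 with median-of-ratios scaling. The RPKM of CDKN2AIP were 3.37 to 3.72 times those of CDKN2AIPNL in control libraries and 1.29 to 1.41 times in GDF5 libraries.

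**Figure D1:**
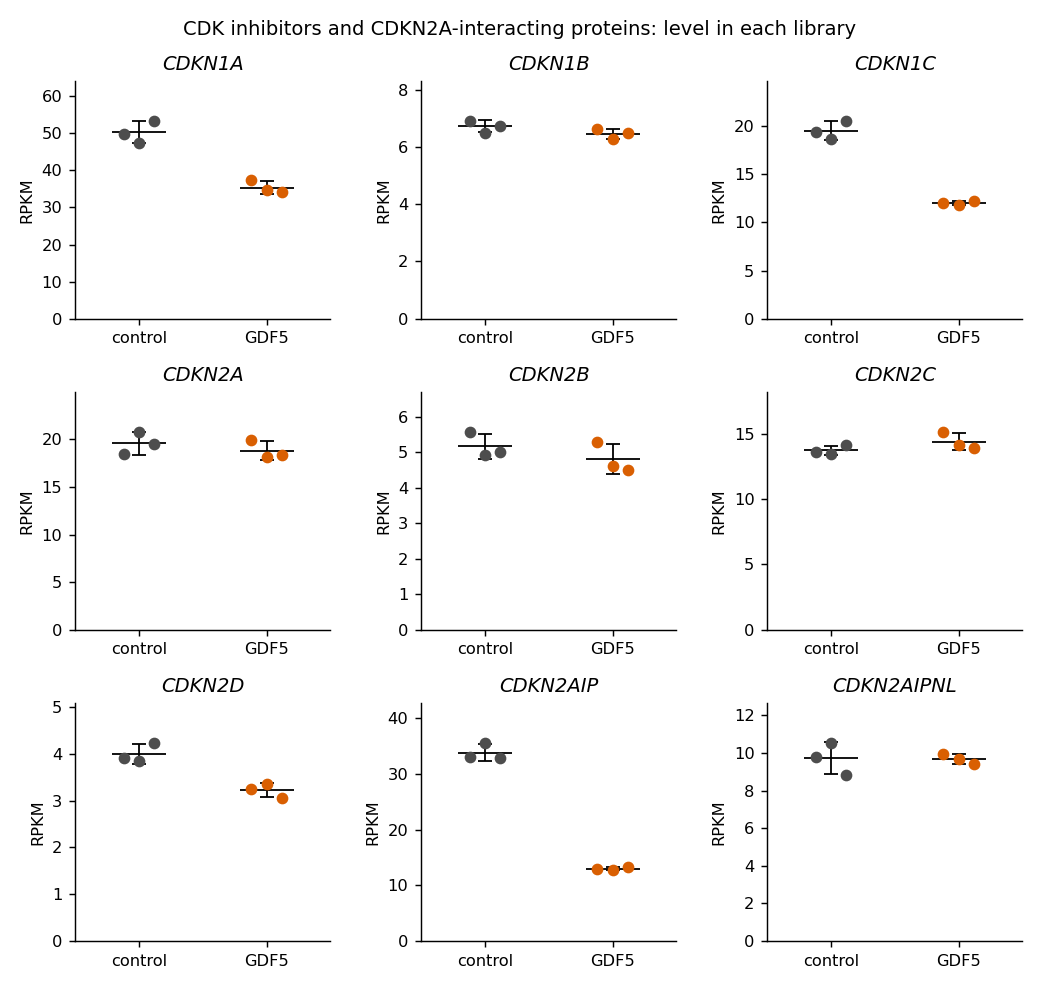
RPKM of each of the 9 genes (y axis, from 0) in the 3 control and the 3 GDF5 libraries (points), with the mean as a line and the SD as bars. CDKN2AIP goes from 33.8 to 12.9 RPKM, CDKN1A, CDKN1C and CDKN2D are lower in every GDF5 library, and the groups of the other 5 genes overlap.

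Of the 8 genes that came in by name, 3 fell (CDKN1C, CDKN1A and CDKN2D), none rose and 5 did not pass the test. On the deposited RPKM, none of the 8 was higher at an unadjusted limma p under 0.05. With limma-voom, none was called higher at an adjusted p under 0.05. The fit was limma on log2(RPKM + 1) over all 12476 genes with Benjamini-Hochberg adjustment and a threshold of 0.05, in which 25.0% of all genes were called, 17.5% lower and 7.48% higher. With median-of-ratios scaling the same 3 genes fell and 0 rose, beside 23.0% of all genes called and 10.8% lower. With limma-voom 2 fell, CDKN1A and CDKN1C, beside 29.1% called and 14.0% lower. The groups of the same 3 genes did not overlap, beside 43.9% of all tested genes without overlap, 30.4% with GDF5 lower. The difference of these genes belongs to the contrast that picked CDKN2AIP, and no more is read from the count. The median log2 difference of all tested genes was -0.050, and -0.0035 with median-of-ratios scaling, which sets each library against the median gene, so values near 0 are read against that shift. Reads from mitochondrial genes made up 7.92 to 8.71% of control and 10.1 to 10.3% of GDF5 libraries, and with these left out of the totals the calls of the 8 genes were the same. In bulk RNA, fewer cells that express a gene and less RNA per cell cannot be told apart.

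Within the CIP/KIP class, CDKN1A and CDKN1C fell and CDKN1B was not called. CDKN1C (ENSG00000129757, chromosome 11, 2883213 to 2885773), an imprinted gene in which p57 is encoded, was at 19.4, 18.7 and 20.6 RPKM in control and 12, 11.8 and 12.2 RPKM in GDF5 libraries. The groups were well apart, and the means went from 19.5 ± 0.952 to 12 ± 0.234 RPKM. CDKN1C fell by 0.66 on the log2 scale (standard error 0.040, limma adjusted p = 9.69e-05), lower in 3 of 3 GDF5 libraries. The authors' deposited table gave -0.64 (adjusted p = 4.44e-23).

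CDKN1A (ENSG00000124762, chromosome 6, 36676460 to 36687339), whose product p21 is the best known target of p53, was at 49.9, 47.5 and 53.4 RPKM in control and 37.3, 34.6 and 34.1 RPKM in GDF5 libraries. No GDF5 library reached the lowest control library, and GDF5 replicate 1 was the highest of its group. The means went from 50.3 ± 2.99 to 35.3 ± 1.74 RPKM, a fall of 0.50 on the log2 scale (standard error 0.052, limma adjusted p = 0.000956). In GENCODE 29 its exons share 146 bases with DINOL on the other strand, and whether the counting used strand is not given in the sources used here.

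CDKN1B (ENSG00000111276, chromosome 12, 12715058 to 12722371), the p27 gene, was at 6.92, 6.50 and 6.74 RPKM in control and 6.61, 6.28 and 6.48 RPKM in GDF5 libraries. The groups overlapped. The log2 difference was -0.050 with a 95% interval of -0.14 to 0.038 (limma adjusted p = 0.361). The summed RPKM of the 3 CIP/KIP genes were 72.6 to 80.7 in control and 52.7 to 56.0 in GDF5 libraries, while CDKN1A made up 65.3 to 66.2% of the sum in control and 64.5 to 66.7% in GDF5 libraries. That share depends on the length the authors used for CDKN1B, 9255 bases against 2811 in GENCODE 29. With the same reads divided by GENCODE 29 lengths the sum was 86.7 to 95.2 RPKM in control and 66.5 to 70.5 RPKM in GDF5 libraries. The sum was thus lower in every GDF5 library with either length. The share of CDKN1A was then 54.2 ± 0.771% in control and 51.0 ± 1.05% with GDF5, and that of CDKN1B was 24.3 ± 0.900% and 31.3 ± 0.477%. Reads were not counted anew over GENCODE 29 exons, so this sum and the CDKN1B share may be too high.

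Among the INK4 genes 1 of 4, CDKN2D, fell, by a small amount. CDKN2D (ENSG00000129355, chromosome 19, 10566462 to 10569059), the p19 gene, was at 3.92, 3.85 and 4.23 RPKM in control and 3.25, 3.36 and 3.06 RPKM in GDF5 libraries. The groups did not overlap, with means of 4.0 ± 0.207 and 3.22 ± 0.152 RPKM. It fell by 0.24 on the log2 scale (standard error 0.049, limma adjusted p = 0.0127). With limma-voom on recovered reads the call ended (adjusted p = 0.0996), and it was not called in the authors' deposited table (adjusted p = 0.442). At 222 to 357 reads per library it had the fewest reads of the 9 genes.

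CDKN2A (ENSG00000147889, chromosome 9, 21967753 to 21995301) was at 18.4, 20.8 and 19.5 RPKM in control and 19.95, 18.2 and 18.4 RPKM in GDF5 libraries. The groups overlapped, with a log2 difference of -0.054 and a 95% interval of -0.18 to 0.072 (limma adjusted p = 0.491). The value covers the whole gene, so transcripts of p16 and of ARF, the partner of CDKN2AIP, cannot be told apart. Its exons share 341 bases with CDKN2B-AS1 on the other strand, whose level was 0.573 ± 0.0184 RPKM without and 0.512 ± 0.0390 RPKM with GDF5.

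CDKN2B (ENSG00000147883, chromosome 9, 22002903 to 22009363), the p15 gene, was at 5.57, 4.91 and 5.0 RPKM in control and 5.28, 4.61 and 4.49 RPKM in GDF5 libraries. The groups overlapped, and the log2 difference was -0.089 with a 95% interval of -0.24 to 0.066 (limma adjusted p = 0.355). Around this locus, the enzyme gene MTAP had a log2 difference of 0.047 and was not called, and DMRTA1, a DNA-binding factor gene, fell by 0.22 (limma adjusted p = 0.0114). Of all genes 17.5% were called lower, and a count over these 2 neighbours is not read further.

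CDKN2C (ENSG00000123080, chromosome 1, 50960745 to 50974633), the p18 gene, was at 13.6, 13.5 and 14.1 RPKM in control and 15.1, 14.1 and 13.9 RPKM in GDF5 libraries. The groups overlapped, and the log2 difference was 0.063 with a 95% interval of -0.033 to 0.16 (limma adjusted p = 0.290). With median-of-ratios scaling it was 0.12, with a 95% interval of 0.022 to 0.21, above 0. It was still not called after adjustment (limma adjusted p = 0.0776). The summed RPKM of the 4 INK4 genes were 41.5 to 43.0 in control and 39.8 to 43.6 in GDF5 libraries, so the groups overlapped.

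**Figure D2:**
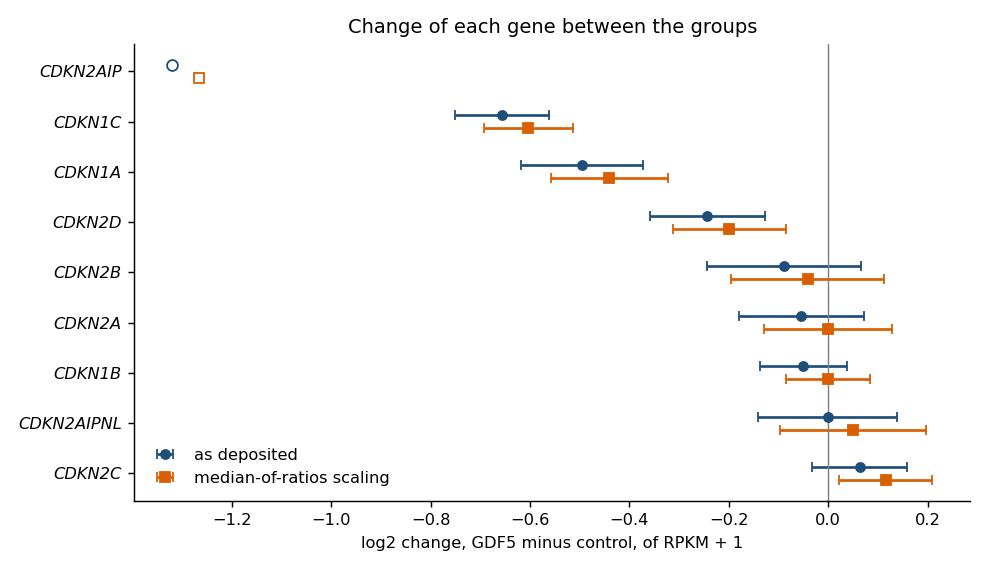
Log2 difference of RPKM + 1, GDF5 minus control (x axis), for each gene (y axis), as deposited (circles) and with median-of-ratios scaling (squares). Bars are 95% intervals from limma, and CDKN2AIP has open symbols and no interval because this contrast picked it. The intervals of CDKN1C, CDKN1A and CDKN2D lie below 0 with either scaling. That of CDKN2C lies above 0 with median-of-ratios scaling (0.022 to 0.21) and includes 0 as deposited.

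CDKN3, which shares the name but encodes a phosphatase that acts on CDKs and peaks in dividing cells, went the other way. It was at 14.5, 15.4 and 15.2 RPKM in control and 16.5, 19.4 and 19.0 RPKM in GDF5 libraries, so the groups did not overlap. It rose by 0.26 on the log2 scale (limma adjusted p = 0.0206). It lost its call with no filter on low values (limma adjusted p = 0.0812), or when control replicate 1 (0.0677) or 3 (0.0519) or GDF5 replicate 2 (0.0678) or 3 (0.0711) was left out.

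The order of levels in control cells was CDKN1A at 50.3, CDKN2AIP at 33.8, CDKN2A at 19.6, CDKN1C at 19.5, CDKN2C at 13.7, CDKN2AIPNL at 9.72, CDKN1B at 6.72, CDKN2B at 5.16 and CDKN2D at 4.0 RPKM. CDKN2A and CDKN1C did not differ beyond their spread, and no other neighbours in this order overlapped between libraries. In GDF5 libraries the order was CDKN1A, CDKN2A, CDKN2C, CDKN2AIP, CDKN1C, CDKN2AIPNL, CDKN1B, CDKN2B and CDKN2D, so CDKN2AIP went from the second place to the fourth. These levels depend on the gene length that the authors divided by. For CDKN1B the deposited values imply 9255 bases, against 2811 bases of merged exons in GENCODE 29, and for CDKN2AIP 4015 against 3193 bases. Such gaps were uncommon: over 12173 tested genes the implied length lay within 5% of GENCODE 29 for 82.3% and was over 3 times it for 0.838%. With the same reads divided by GENCODE 29 lengths, CDKN1B would stand at 22.1 ± 0.693 RPKM in control and CDKN2AIP at 42.5 ± 1.91 RPKM. CDKN1B would then be above CDKN2A at 17.6 ± 1.07 and CDKN1C at 19.6 ± 0.953 RPKM. Reads were not counted anew over GENCODE 29 exons. Any reads outside those exons stay in, so the values of CDKN1B and CDKN2AIP may be too high, and so may their places. The differences between groups are not touched by the ratio of lengths, other than through the added 1 in log2(RPKM + 1). For CDKN1B and CDKN2AIP the implied length exceeds the whole span from annotated start to end. Any reads from outside the gene would enter their differences too, which was not tested.

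**Figure D3:**
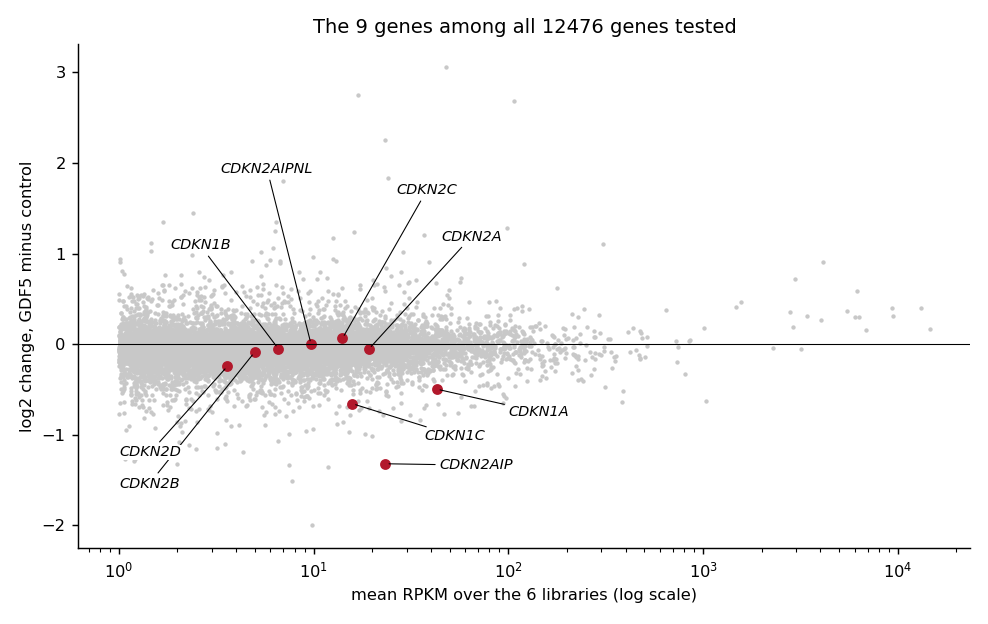
Mean RPKM over the 6 libraries (x axis, log scale) against the log2 difference of RPKM + 1, GDF5 minus control (y axis), for the 12476 tested genes (grey) and the 9 genes described (red). CDKN2AIP lies at -1.32, near the lower edge, while CDKN1B, CDKN2A, CDKN2B, CDKN2C and CDKN2AIPNL lie within the bulk.

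The genes around CDKN2AIP on chromosome 4 did not share its difference at the tested level. GENCODE 29 places 22 genes within 500 kb, of which 17 were in the table and 6 were tested. Of these 1 was called lower and 1 higher, beside 17.5% and 7.48% of all genes. No annotated gene overlaps CDKN2AIP. ING2, a chromatin reader gene 56.8 kb downstream, went from 5.14 ± 0.0403 to 4.29 ± 0.419 RPKM and fell by 0.22 on the log2 scale (limma adjusted p = 0.0378). It was no longer called under median-of-ratios scaling (limma adjusted p = 0.0840), or when control replicate 1 (0.0901), 2 (0.0915) or 3 (0.0870) or GDF5 replicate 2 (0.0702) was left out. WWC2, a gene of Hippo signalling 123.8 kb upstream, rose by 0.20 (limma adjusted p = 0.00646), from 11.7 ± 0.342 to 13.6 ± 0.288 RPKM. RWDD4, TRAPPC11, STOX2 and the small nuclear RNA copy RNU6-1053P had log2 differences of 0.040, -0.025, -0.043 and 0.41 and were not called, though RNU6-1053P, at a mean of 15 reads, was called higher without control replicate 2 (limma adjusted p = 0.00475).

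Below the tested level, 11 of the genes near CDKN2AIP had a mean under 1 RPKM. Among those with a symbol, the antisense gene WWC2-AS2 had 18 to 24 reads in control and 10 to 20 in GDF5 libraries, while WWC2-AS1, CLDN24, VTI1BP2 and RNU6-479P had at most 6 reads in any library. The processed pseudogene AC093844.1, 62.9 kb upstream, had 40, 34 and 38 reads in control and 22, 13 and 9 reads in GDF5 libraries. Its groups did not overlap, at 0.555 ± 0.0571 and 0.209 ± 0.0836 RPKM, and the GDF5 level was 0.377 of the control level, beside 0.383 for CDKN2AIP. It was singled out after its values were seen and has no test, and a processed pseudogene can share reads with its parent gene.

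**Figure D4:**
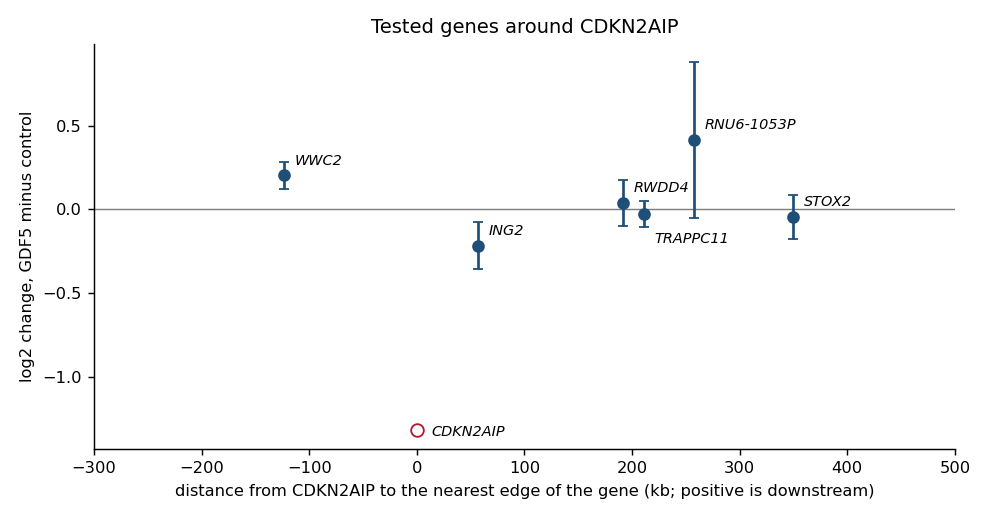
Log2 difference of RPKM + 1, GDF5 minus control (y axis), against the distance in kb from CDKN2AIP to the nearest edge of each tested gene within 500 kb (x axis, positive is downstream). Bars are 95% intervals from limma; the 6 neighbours lie between -0.22 and 0.41, and CDKN2AIP (open circle, no interval) at -1.32.

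The genes with the library profile most like that of CDKN2AIP were SPNS2, SMPDL3A, WNT7B, HCG22 and C1orf116. Likeness was the Euclidean distance between profiles of log2(RPKM + 1) centred on each gene's mean, over the 6 libraries and among 9915 genes that had a symbol and averaged 2 RPKM or more. The distances were 0.207, 0.210, 0.253, 0.258 and 0.371 in that order, and Pearson's r lay between 0.988 and 0.999, a description over 6 libraries that share 1 group difference. None of these genes lies on chromosome 4. SPNS2, a sphingosine-1-phosphate transporter gene, went from 17.4 ± 1.4 to 6.19 ± 0.161 RPKM, and C1orf116 from 9.29 ± 0.487 to 3.90 ± 0.340 RPKM.

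The partners of CDKN2AIP showed no call in the list of 7 genes for p53, ARF-binding and XRN2-binding proteins, beside 25.0% of all genes called. At an unadjusted p under 0.05 limma gave 1 lower and 0 higher, beside 4906 of all 12476 genes in either direction. With limma-voom 1 was called higher, beside 15.1% of all genes. The groups did not overlap for 5 of the 7 genes, beside 43.9% of all genes. The list's median log2 difference was -0.040, beside -0.050 for all genes. XRN2 was at 71.7 ± 1.04 and 68.3 ± 1.29 RPKM, with a log2 difference of -0.070 (limma adjusted p = 0.105). NPM1, a nucleolar protein that binds ARF, was at 93.5 ± 3.81 and 90.3 ± 1.53 RPKM, with a log2 difference of -0.049 (limma adjusted p = 0.348). HUWE1, a ubiquitin ligase gene whose product binds ARF, was called higher under median-of-ratios scaling (limma adjusted p = 0.0386), where the sign of NPM1 turned to 0.0074.

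Of 21 tested targets of p53 other than CDKN1A, 8 fell and 1 rose, beside 17.5% of all tested genes lower and 7.48% higher, with a median log2 difference of -0.10 beside -0.050 over all genes. Under median-of-ratios scaling 6 fell and 1 rose, around a median of -0.049, beside 10.8% of all genes lower and 12.2% higher. TP53INP1, a stress-induced regulator of cell death and autophagy, fell from 15.6 ± 0.627 to 11.6 ± 0.420 RPKM (log2 difference -0.39, limma adjusted p = 0.000915). DDB2, of ultraviolet damage recognition, fell by 0.31 and the mitochondrial reductase gene FDXR by 0.27 (limma adjusted p = 0.0025 and 0.00381). PLK2, a polo-like kinase gene, rose by 0.26 (limma adjusted p = 0.00126).

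In a list of CDKs and cyclins, 5 of 15 tested genes rose and 2 fell, with a median of 0.074, beside 7.48% of all genes higher and 17.5% lower. The list also holds the CDK-activating kinase, of which CDK7 was among the falls, its assembly factor MNAT1, neither a CDK nor a cyclin, was among the rises, and the cyclin CCNH was not called. CDK7 fell by 0.12 (limma adjusted p = 0.0282). It was not called under median-of-ratios scaling (limma adjusted p = 0.153) or with limma-voom (adjusted p = 0.332). CDK4, the kinase bound by the INK4 proteins, fell from 35.5 ± 1.85 to 29.5 ± 1.46 RPKM (log2 difference -0.26, limma adjusted p = 0.0109). CCND3, a cyclin partner of CDK4 and CDK6, rose from 11.2 ± 0.544 to 13.1 ± 0.328 RPKM (log2 difference 0.22, limma adjusted p = 0.0106). CCNA2 and CCNB2, cyclins of the later cycle, rose by 0.26 and 0.15 (limma adjusted p = 0.00147 and 0.00989). The 7 calls became 4 when control replicate 2 or 3 or GDF5 replicate 2 or 3 was left out, where the 3116 calls over all genes became 1763 to 2344. With median-of-ratios scaling 6 rose and 1 fell, beside 12.2% of all genes higher and 10.8% lower.

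Downstream of the CDKs, none of 13 genes of the RB and E2F families was called by limma (2 were lower and 0 higher at an unadjusted p under 0.05), and none with limma-voom. Over all 12476 genes 25.0% were called by limma and 29.1% by limma-voom, and 4906 had an unadjusted limma p under 0.05. TFDP1, the dimer partner of E2F proteins, was at 36.8 ± 0.264 and 36.5 ± 0.597 RPKM, and RB1, the main target of CDK4 and CDK6, at 17.1 ± 0.492 and 17.3 ± 0.741 RPKM. Of 18 G1/S genes that E2F proteins are known to drive, 9 fell and 1 rose, with a median of -0.085, beside 17.5% of all genes lower and 7.48% higher. PCNA fell by 0.15, RRM2 by 0.15, MCM2 by 0.24 and MCM7 by 0.19 (limma adjusted p = 0.00652, 0.00816, 0.00939 and 0.0119). With median-of-ratios scaling 5 fell and 2 rose, with a median of -0.030, beside 10.8% lower and 12.2% higher over all genes. The 10 calls became 6 without control replicate 1 or control replicate 3 and 5 without GDF5 replicate 2 or GDF5 replicate 3. Over all genes the 3116 calls became 1763 to 2213 when these libraries were left out.

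Of 11 genes for the ubiquitin ligases that remove p21 and p27, 2 fell and 1 rose, with a median of -0.032. These shares are near those of all genes, 17.5% lower and 7.48% higher, so the count is no result about the list. SKP1, the adaptor of the SCF ligase, fell from 5.40 ± 0.127 to 4.19 ± 0.141 RPKM (log2 difference -0.30, limma adjusted p = 0.00220). CKS1B, the cofactor that presents p27 to SKP2, rose from 26.0 ± 1.11 to 31.3 ± 0.861 RPKM (log2 difference 0.26, limma adjusted p = 0.00451). CUL4A, a ligase scaffold, fell by 0.12 (limma adjusted p = 0.0312), which was not called under median-of-ratios scaling (0.149), nor when any one library other than control replicate 2 was left out (0.0578 to 0.111). With median-of-ratios scaling 1 gene of this list fell and 3 rose, beside 10.8% of all genes lower and 12.2% higher.

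Of 17 tested regulators of CDK inhibitor genes, 5 fell and 2 rose, beside 17.5% of all genes lower and 7.48% higher, and the median of -0.046 was near the -0.050 of all genes. SMAD4, the shared partner of receptor-activated SMADs, fell by 0.25 (limma adjusted p = 0.00883), and KLF6, a zinc finger factor known to activate CDKN1A, by 0.20 (limma adjusted p = 0.0128). MYC, known to repress CDKN1A and CDKN2B, was at 31.4 ± 2.85 and 37.7 ± 0.581 RPKM and rose by 0.26 (limma adjusted p = 0.0193). KDM6B, a histone demethylase known to act at CDKN2A, fell by 0.24 (limma adjusted p = 0.0200). The calls of MYC and KDM6B ended without control replicate 1 (0.0638 and 0.0647), GDF5 replicate 2 (0.0615 and 0.0690) or GDF5 replicate 3 (0.0630 and 0.0698), and that of KDM6B also without control replicate 3 (0.0600). The 7 calls of the list became 2 without control replicate 1 or GDF5 replicate 3 and 3 without control replicate 3 or GDF5 replicate 2. Over all genes the 3116 calls became 1763 to 2213 when these libraries were left out. With median-of-ratios scaling 3 of the list fell and 2 rose, beside 10.8% of all genes lower and 12.2% higher.

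**Figure D5:**
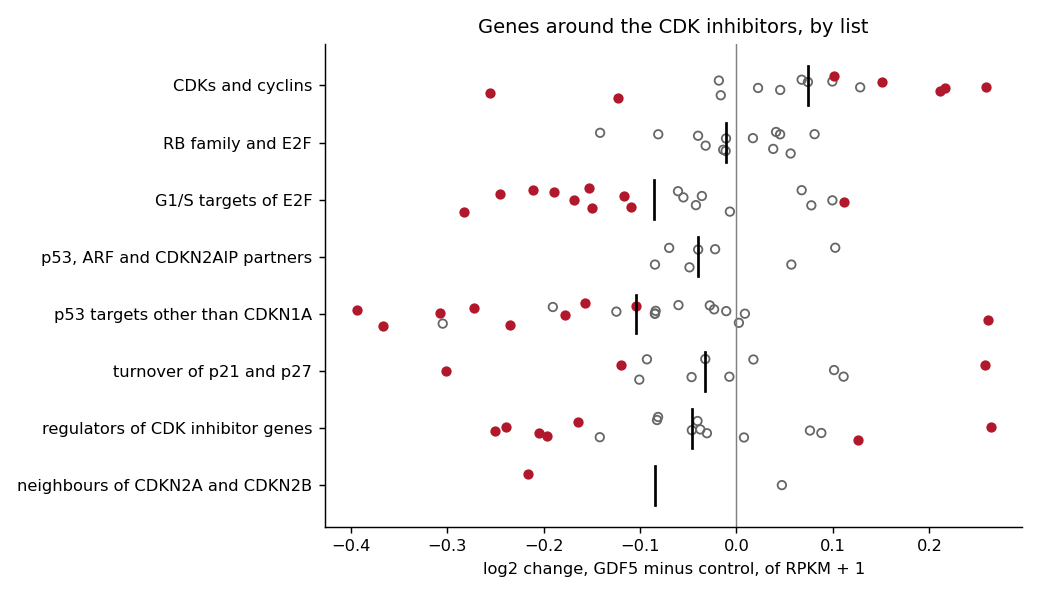
Log2 difference of RPKM + 1, GDF5 minus control (x axis), of each tested gene in 8 lists (y axis, with points spread vertically for view). Filled points have a limma adjusted p under 0.05, and black bars are list medians, from -0.10 for p53 targets to 0.074 for CDKs and cyclins.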

How the data were processed

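The submitters' processing notes name HISAT2, DESeq2 and GRCh38 without roles or versions; they name no counter or annotation. A single copy was read, since the 2 files held identical contents. The authors deposited 1 RPKM value per gene and library, a unit read from the values. The authors' mean signal per group (reads divided by a size factor), their log2 fold change and their p-value per gene were deposited beside it, per the file headers. Reads were recovered from these columns: all 64634 values under 20 reads came within 0.1 of a whole number (100%). With these reads and the library totals, the values taken as RPKM imply lengths within 5% of GENCODE 29 for 82.3% of 12173 genes. Coordinates are from GENCODE 29 on GRCh38.

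Groups and replicate numbers came from the sample titles. Genes with a mean of at least 1 RPKM were compared as log2(RPKM + 1) by two-sided limma tests (version 3.58.1, R 4.3.3) with a variance trend on level, no block and a threshold of 0.05 after Benjamini-Hochberg adjustment over all genes. The scale understates the change of low genes. A check on simulated data came first. The 9 genes and all lists were chosen with earlier results of these data known. Named list genes are up to 4 calls with the smallest adjusted p, or the 2 highest levels where none was called. Alternatives were another pseudocount, no filter, other scalings, a replicate block, limma-voom on recovered reads and leaving out each library. Same-numbered libraries did not deviate together, as the closing section gives.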

Additional observations from a re-analysis of the deposited data

How the results depend on the processing

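Over 12 alternatives each, CDKN1A and CDKN1C remained called lower, and CDKN1B, CDKN2A, CDKN2B, CDKN2C and CDKN2AIPNL were never called. With limma-voom on recovered reads CDKN2D was not called (-0.26, adjusted p = 0.0996), and the signs of CDKN1B (0.00086) and CDKN2A (0.0035) turned. CDKN2AIPNL turned to 0.050 with median-of-ratios scaling, 0.027 with mitochondrial genes left out of the totals and 0.065 with limma-voom, and ran from -0.062 to 0.053 without single libraries. CDKN2AIP was at -1.38 with a pseudocount of 0.1, at -1.27 with median-of-ratios scaling and between -1.34 and -1.28 without single libraries. The 3116 calls over all genes became 1812 without a filter and 1763 to 3099 without single libraries, at 2074 without control replicate 1, 1763 without GDF5 replicate 2 and 1869 without GDF5 replicate 3. Calls in the lists, with the replicate block and then without single libraries, were 4 and 4 to 6 of CDKs and cyclins, and 6 and 5 to 9 of G1/S genes. Without a filter they were 6 of G1/S genes and 2 of regulators, which had 2 to 6 without single libraries. Of p53 and CDKN2AIP partners 1 was called with median-of-ratios scaling and 1 with limma-voom. Near CDKN2AIP 1 gene was called with median-of-ratios scaling, with mitochondrial genes left out, with the replicate block and with limma-voom, and 1 to 2 without single libraries. NPM1 turned to 0.0074 with median-of-ratios scaling and 0.0079 with limma-voom. TFDP1 turned to 0.044, 0.019 and 0.045 and TRAPPC11 to 0.025, 0.0024 and 0.031 with median-of-ratios scaling, mitochondrial genes left out and limma-voom. Without single libraries RB1 ran from -0.011 to 0.047, RWDD4 from -0.0064 to 0.080 and TFDP1 from -0.018 to 0.0022. The causes were not tested. The replicate block gave 2167 calls. The deviations of same-numbered libraries had correlations of -0.037, 0.057 and -0.031, so no shared deviation was seen. Whether same-numbered libraries were handled as pairs is not labelled, and these values cannot settle it. No call among the 8 genes changed under the block. CDKN2D had 222 to 357 reads per library, the fewest of the 9 genes, and the part of depth in its calls was not tested.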
